A study of Mus musculus with 6 samples.

Results

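The genes described here are 50 genes of mitosis, the kinetochore and the spindle, taken by name from what their proteins do in dividing cells. They and the lists set beside them were chosen with earlier results of these data known. Each name was sought among the gene names of the deposited count table, with joined names split at commas, and 50 of its 51499 loci were found this way: 49 under the listed symbol and Sgol1 under its other symbol, Sgo1. The question was whether the RNA of these genes differed between cells given a control siRNA and cells given an siRNA against Yme1l, and by how much.

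Poly(A) RNA was sequenced from wild-type (WT) mouse embryonic fibroblasts (MEFs) harvested 72 h after a scrambled (Scr) siRNA or Yme1l siRNA, with 3 independent cultures for each siRNA. Yme1l1 encodes YME1L, an ATP-dependent protease of the inner mitochondrial membrane. The labels call the cells 3T3 immortalized. The study's methods instead describe WT MEFs from Yme1l loxP/loxP mice that were immortalised with SV40 large T antigen and expanded as individual clones, and which of the descriptions holds for these 6 cultures was not settled here. Large T antigen binds the retinoblastoma family and p53, which is a limit of such a line as a model of the cell cycle. Per the study's methods, cells were plated at one density and reached confluency within 72 h with no change of medium, unless stated otherwise. How dense each of these 6 cultures was at harvest is not given in the sources used here. The part of cell density in the differences below was not tested and cannot be told apart from that of the siRNA. Libraries held between 37260605 and 45205207 counts.

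Entry into mitosis is driven by the kinase CDK1 with B-type cyclins, which CDC25 phosphatases switch on. Chromosomes are then condensed and attached through kinetochores to spindle microtubules, while a checkpoint holds back the anaphase-promoting complex until every kinetochore is attached, after which sister chromatids part and a central spindle directs cytokinesis. Most of these genes are transcribed late in the cycle, when B-Myb and FOXM1 act with the MuvB complex at promoters that often carry a CHR element and CCAAT boxes, whereas genes needed for S phase are transcribed earlier, under E2F. Cells outside the cycle hold little of these RNAs.

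All levels below are CPM, counts scaled to one common library size after TMM (trimmed mean of M values) normalisation, listed for replicates 1, 2 and 3 in that order. A fold change is that of Yme1l siRNA over Scr on the log2 scale with its standard error (SE). The SE was derived from the test named next, as the absolute log2 fold change divided by the square root of F. A gene is said to be higher or lower where the adjusted p of edgeR's quasi-likelihood test, with the Benjamini-Hochberg adjustment over all 14499 loci tested, was under 0.05. The siRNA target itself, Yme1l1, was at 170.5, 171 and 171 CPM in the Scr libraries and at 31.6, 23.4 and 45.04 CPM after Yme1l siRNA. Each library thus stood on the side its label gives, with a log2 fold change of -2.36 ± 0.20 (adjusted p = 3.9e-05). The labelled cell type was checked by markers. Of 12 fibroblast markers, the collagen gene Col1a1 was the most abundant, at means of 12695 and 8504 CPM, and Thy1 and Lum lay under 1 CPM in both groups. Summed over the 12, these markers stood at 44206, 40561 and 36267 CPM in the Scr libraries and 23438, 22738 and 18975 CPM after Yme1l siRNA, and 9 of the 10 tested were lower. The 7 epithelial markers summed to 0.115, 0.222 and 0.118 CPM in the Scr libraries and 0.992, 1.33 and 0.831 CPM after Yme1l siRNA, with 1 of them at 0 counts in all libraries. Krt8, the most abundant after Yme1l siRNA and the only one tested, was higher, with 1 count in each Scr library and 24, 31 and 23 counts after Yme1l siRNA, and no fold change is given for so few. The 6 endothelial markers summed to 3.79, 3.99 and 4.08 CPM and 7.26, 5.68 and 7.81 CPM, with 2 of them at 0. Of the 3 tested, Tek, the most abundant (0.61), and Kdr (2.57) were higher. Kdr lay within these sums of a few CPM, so its fold change rests on a low level. The leukocyte markers summed to 178, 169 and 162 CPM and 254, 241 and 248 CPM, carried by Csf1r, which was higher (0.74), and Cd68, which did not pass, while 3 of the 7 were at 0 and the defining marker Ptprc lay at or near 0. The part of these markers' differences in the results below was not tested.

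Mitosis genes were mostly higher after Yme1l siRNA. Of the 50, 49 passed the filter on low counts, and 35 of these 49 (71.4%) were higher, beside 28.4% of all loci tested. No member was lower, beside 29.6% of all loci, and none was lower at an unadjusted p under 0.05 by edgeR, DESeq2 or limma-voom. The median log2 fold change of the 49 was 0.57, a 1.48-fold rise, with quartiles of 0.28 and 0.77, whereas the median of all tested loci was 0.01 with quartiles of -0.42 and 0.41. In 34 of the 49 (69.4%) the 3 Yme1l siRNA libraries all lay above the 3 Scr libraries, which held for 31.9% of all loci tested, and chance gives 5% for 3 against 3 in this direction. At least a doubling was reached by 5 of the 49 (10.2%), namely Ncapg, Foxm1, Birc5, Ect2 and Mki67, beside 8.18% of all loci. The rise was thus common among these genes and moderate in size. These RNA levels cannot tell apart more cells in the cycle, a larger share of them in the phases that hold these RNAs, and more RNA per cell. The rate of division was not measured in these libraries.

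**Figure D1:**
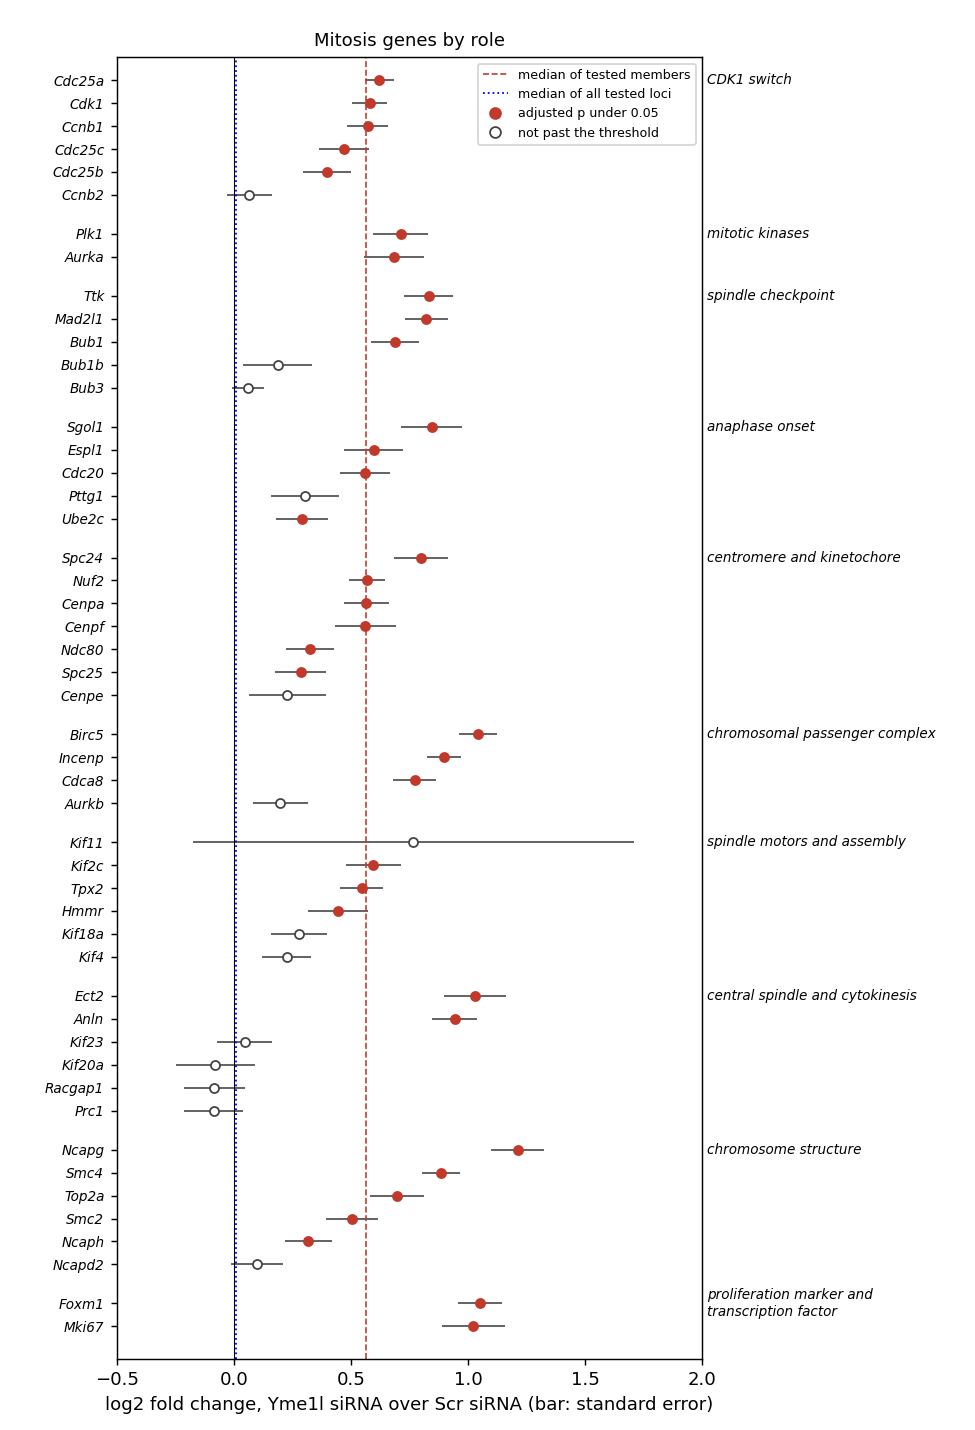
The log2 fold change of each tested mitosis gene, Yme1l siRNA over Scr, is plotted by role, with bars for 1 standard error, filled circles for genes past an adjusted p of 0.05 and open circles for the others. The dashed line marks the members' median of 0.57 and the dotted line that of all tested loci, 0.01, and open circles are most frequent in the central spindle group, where Prc1, Racgap1, Kif20a and Kif23 lie near 0.

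The replicates did not stand at one level. Scr replicate 3 was the highest Scr library for 47 of the 49 tested members, and Yme1l siRNA replicate 3 the highest of its group for 41, while Yme1l siRNA replicate 2 was the lowest of its group for 37. Relative to the mean of all 6 libraries, the members' mean log2 CPM stood at -0.35, -0.35 and -0.08 in the Scr libraries and at 0.30, 0.14 and 0.34 after Yme1l siRNA. Without Kif11, which had few counts, they stood at -0.38, -0.33 and -0.07 and at 0.26, 0.17 and 0.36. The groups did not overlap either way, though Scr replicate 3 and Yme1l siRNA replicate 2 came within a small distance of each other. Left out in turn, single libraries moved the number of members higher between 30 and 39. Leaving out Scr replicate 3 gave 39 and leaving out Yme1l siRNA replicate 2 gave 36, whereas leaving out Scr replicate 1 or 2 gave 30.

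Of the 6 genes of the CDK1 switch, 5 were higher. Cdk1, the kinase at its centre (chromosome 10, 69335146 to 69352938 of GRCm38), was at 164, 176 and 186 CPM in the Scr libraries and 254, 256 and 277 CPM after Yme1l siRNA. Every Yme1l siRNA library lay above every Scr library, a log2 fold change of 0.58 ± 0.08 (adjusted p = 2.8e-04). Cyclin B1, its main mitotic partner, followed it, since Ccnb1 (chromosome 13, 100778650 to 100786570) measured 93.5, 102 and 109.9 CPM and then 154, 139 and 161 CPM, again without overlap (0.57 ± 0.09, adjusted p = 6.8e-04). Ccnb2, which encodes the second B-type cyclin (chromosome 9, 70407692 to 70421547), did not separate the groups: its Scr libraries held 51.5, 56.9 and 66.4 CPM and its Yme1l siRNA libraries 59.7, 59.1 and 64.02 CPM. All 3 of the latter lay within the range of the Scr libraries, and the log2 fold change was 0.06 ± 0.10 (adjusted p = 0.587). Per kilobase of exon, Ccnb1 and Ccnb2 stood close together in the Scr libraries, at means of 40.9 and 38.1 CPM per kb, and apart after Yme1l siRNA, at 60.8 and 39.8. Among the phosphatases that activate CDK1, Cdc25a, which also acts at the start of S phase, went from 33.2, 32.5 and 34.7 CPM to 50.6, 51.1 and 52.8 CPM. Its replicates lay closer together than those of the other genes of this group, and its log2 fold change was 0.62 ± 0.06 (adjusted p = 7.8e-05). Cdc25b and Cdc25c were also higher, with log2 fold changes of 0.40 and 0.47. Exons of Cdc25b overlap those of Spef1 on the other strand, and Spef1 had a log2 fold change of 0.40 as well.

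Of the 3 kinases grouped here, Plk1 and Aurka were higher and Nek2 was not tested, while other kinases of mitosis are given under their own roles. Plk1, which acts from mitotic entry to cytokinesis (chromosome 7, 122159439 to 122169873), was at 66.9, 64.7 and 86.2 CPM in the Scr libraries and 118, 111 and 127 CPM after Yme1l siRNA, so that Scr replicate 3 stood above its group and still below all of the other. The log2 fold change was 0.71 ± 0.12 (adjusted p = 9.6e-04). Aurka, the kinase of centrosomes and spindle poles, rose from 53.7, 53.5 and 73.3 CPM to 92.4, 92.5 and 105 CPM, again with replicate 3 the highest of each group and no overlap (0.68 ± 0.13, adjusted p = 0.00199). Nek2, a centrosomal kinase, was listed at only 48, 1 and 0 counts with Scr siRNA and at 5, 4 and 3 with Yme1l siRNA. It did not pass the filter and was not tested. Every other member but Kif11 held at least 412 counts in each library, and why Nek2 was listed so low was not tested. Of the loci in the rows beside it in the count table, Slc30a1 held at most 1 count in each library and Lpgat1 at least 3507.

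The promoters of 4 of these genes are shown because Cdk1, Ccnb1 and Plk1 were higher and Ccnb2 was not, although all 4 windows carry the elements known from late cell cycle genes. The sequences are RefSeq's for GRCm38.p6, from 250 bases before to 50 bases after the annotated start of transcription, written 5′ to 3′ on the strand of the gene. They lie at chr10:69352863-69353162 for Cdk1, chr13:100786437-100786736 for Ccnb1 and chr9:70421505-70421804 for Ccnb2, all on the minus strand, and at chr7:122159185-122159484 on the plus strand for Plk1. Capitals mark the CHR letters TTTGAA or TTTAAA and the CCAAT letters, on either strand.
Cdk1: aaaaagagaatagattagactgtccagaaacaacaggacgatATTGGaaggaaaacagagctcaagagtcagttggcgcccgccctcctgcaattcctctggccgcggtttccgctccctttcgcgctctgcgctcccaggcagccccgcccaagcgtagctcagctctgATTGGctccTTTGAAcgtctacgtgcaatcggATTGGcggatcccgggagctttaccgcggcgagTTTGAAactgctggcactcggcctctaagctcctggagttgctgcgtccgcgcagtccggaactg
Ccnb1: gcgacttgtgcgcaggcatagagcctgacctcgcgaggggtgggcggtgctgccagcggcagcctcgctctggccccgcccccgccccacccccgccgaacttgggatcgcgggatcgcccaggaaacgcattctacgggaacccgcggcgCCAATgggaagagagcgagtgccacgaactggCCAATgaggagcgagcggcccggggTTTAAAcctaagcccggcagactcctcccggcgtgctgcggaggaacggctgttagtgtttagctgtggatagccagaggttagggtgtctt
Ccnb2: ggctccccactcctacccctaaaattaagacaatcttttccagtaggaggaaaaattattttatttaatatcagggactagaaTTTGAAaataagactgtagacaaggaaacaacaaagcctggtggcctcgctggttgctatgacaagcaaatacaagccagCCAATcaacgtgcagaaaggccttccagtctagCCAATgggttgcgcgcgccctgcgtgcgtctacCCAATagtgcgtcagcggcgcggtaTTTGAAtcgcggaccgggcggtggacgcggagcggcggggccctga
Plk1: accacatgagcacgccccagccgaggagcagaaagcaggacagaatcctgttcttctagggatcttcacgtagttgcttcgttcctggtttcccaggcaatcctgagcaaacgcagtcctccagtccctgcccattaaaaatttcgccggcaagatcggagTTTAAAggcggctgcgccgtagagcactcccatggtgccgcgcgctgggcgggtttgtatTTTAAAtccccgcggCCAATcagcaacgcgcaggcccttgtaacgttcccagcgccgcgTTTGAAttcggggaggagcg
The window of Cdk1 held 2 CHR and 3 CCAAT matches, that of Ccnb1 held 1 and 2, that of Ccnb2 held 2 and 3, and that of Plk1 held 3 and 1. Ccnb2, the gene of these 4 that did not pass the test, thus had as many of both as Cdk1. The E2F letters given below were found 2 times for Cdk1, 1 time for Ccnb1 and 0 times for Ccnb2 and Plk1.

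The same letters were counted over all members with a window. RefSeq's table gave 45 windows for 42 of the 50 members. CHR letters were found in 35 of the 45 (77.8%), beside 27.6% of all 32851 promoter windows of this length, and CCAAT in 36 (80%), beside 37.4%. Both were present in 31 windows (68.9%), beside 10.7% of all windows. The other mitosis genes described below had a lower share than the members, with CHR letters in 40 of 83 windows (48.2%) and both in 26 (31.3%). E2F letters, searched as TTCCCGC or TTGGCGC or TTCGCGC or TTGCCGC on both strands, were in 11 windows (24.4%), beside 9.57%. The second of these can share letters with a CCAAT match on the other strand. Among S phase genes, E2F letters were in 25 of 37 windows (67.6%), CCAAT in 23 (62.2%), CHR letters in 12 (32.4%) and CHR with CCAAT in 6 (16.2%). The last 2 shares lay near the 27.6% and 10.7% of all windows. Within the mitosis genes, members that did not pass the test carried CHR with CCAAT in 12 of 14 windows and members that were higher in 19 of 30, and E2F letters in 2 of 14 and 9 of 30. These are matches of letters and not sites shown to be bound.

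**Figure D2:**
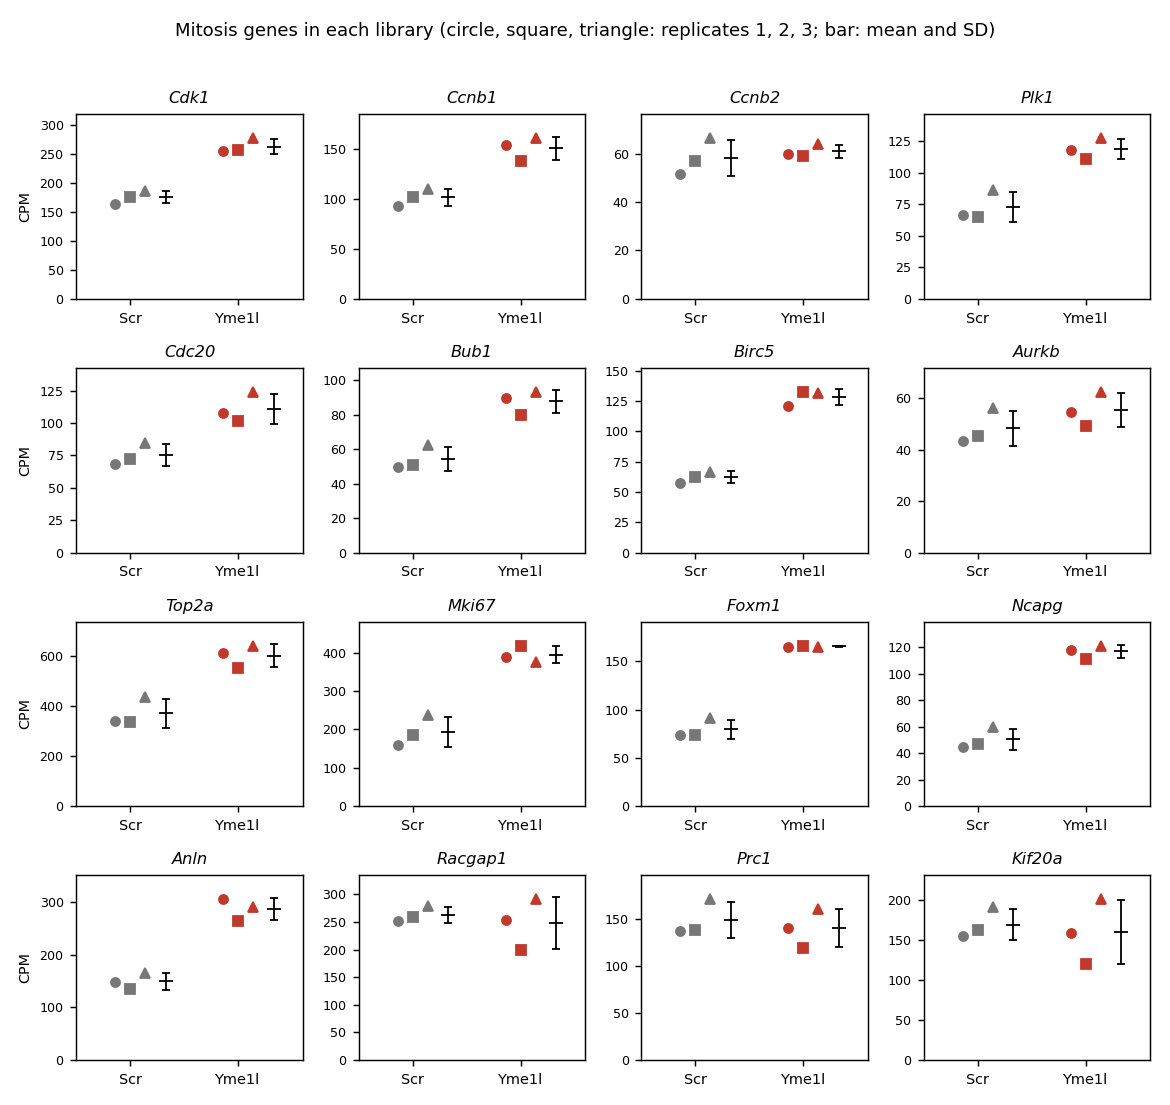
Each panel shows 1 mitosis gene in CPM from 0 upwards, with circles, squares and triangles for replicates 1, 2 and 3 of Scr (grey) and Yme1l siRNA (red), and bars for the mean and SD of 3 libraries. Cdk1, Birc5, Foxm1, Ncapg and Anln separate fully, whereas the groups overlap for Ccnb2, Aurkb, Racgap1, Prc1 and Kif20a, the last with Yme1l siRNA libraries from 120.7 to 201 CPM.

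Within the spindle checkpoint, 3 of 5 genes were higher. Mad2l1 encodes MAD2, which binds CDC20 at unattached kinetochores. It was at 43.2, 45.8 and 54.1 CPM in the Scr libraries and 82.7, 81.7 and 88.3 CPM after Yme1l siRNA. That gap was several times the spread within either group, and the log2 fold change was 0.82 ± 0.09 (adjusted p = 1.3e-04). Ttk, whose product MPS1 starts the checkpoint signal, changed by nearly the same amount, from 17.8, 20.4 and 23.4 CPM to 38.03, 34.5 and 37.2 CPM (0.83 ± 0.11, adjusted p = 2.5e-04). Bub1, the kinase that recruits further checkpoint proteins, stood at 49.96, 50.9 and 62.5 CPM and then 90.04, 80.02 and 93.3 CPM, also without overlap (0.69 ± 0.10, adjusted p = 6.2e-04). The other 2 did not pass. For Bub1b, which encodes the checkpoint subunit BUBR1, the Scr libraries held 94.8, 94.6 and 119 CPM and the Yme1l siRNA libraries 117, 94.1 and 139 CPM. Its Yme1l siRNA replicate 2 lay below all Scr libraries and replicate 3 above them all, and the log2 fold change was 0.19 ± 0.15 (adjusted p = 0.306). Bub3, the adaptor of BUB1 and BUBR1, had 125, 126 and 133 CPM and 130.5, 129 and 141 CPM. Its groups overlapped, since Scr replicate 3 lay above Yme1l siRNA replicates 1 and 2 (0.06 ± 0.07, adjusted p = 0.488). Of the 4 parts of the mitotic checkpoint complex, Mad2l1 and Cdc20 were therefore higher while Bub1b and Bub3 did not pass the test.

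Genes that time the start of anaphase were higher in 4 of 5 cases. Cdc20 activates the anaphase-promoting complex and is the protein the checkpoint holds back. It was at 68.4, 72.6 and 84.9 CPM and 107, 101 and 124 CPM, with no overlap, a log2 fold change of 0.56 ± 0.11 (adjusted p = 0.00222). Its exons overlap those of Elovl1 on the other strand, which was lower (-0.18). Sgol1 encodes shugoshin, the protector of centromeric cohesion, and had the largest rise of the group, from 32.4, 37.02 and 47.5 CPM to 70.1, 66.6 and 73.4 CPM. The 3 Scr libraries were spread more widely than the 3 Yme1l siRNA libraries, and the log2 fold change was 0.84 ± 0.13 (adjusted p = 6.6e-04). Espl1, which encodes the cohesin-cleaving protease separase, was higher by 0.60 ± 0.13. Ube2c, the ubiquitin-conjugating enzyme of the anaphase-promoting complex, was higher by only 0.29 ± 0.11 (adjusted p = 0.0496) and its groups overlapped. It lost the call when any 1 of 4 libraries, all but Scr replicate 3 and Yme1l siRNA replicate 2, was left out, with adjusted p from 0.0775 to 0.18. Securin, the inhibitor of separase, is encoded by Pttg1, with 23.9, 22.3 and 18.3 CPM in the Scr libraries and 26.6, 31.2 and 21.7 CPM after Yme1l siRNA. It was the only tested member with Scr replicate 3 as the lowest Scr library, and the log2 fold change of 0.30 ± 0.15 did not pass (adjusted p = 0.105), though it did without Yme1l siRNA replicate 3 (0.43, adjusted p = 0.0172).

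At the centromere and kinetochore, 6 of 7 genes were higher. All 4 subunits of the NDC80 complex, the main microtubule attachment of the kinetochore, were among them. Spc24 rose from 10.1, 11.4 and 13.1 CPM to 18.9, 19.4 and 21.97 CPM (0.80 ± 0.12, adjusted p = 5.1e-04). Nuf2 rose from 37.9, 37.4 and 40.5 CPM to 58.7, 51.97 and 60.9 CPM (0.57 ± 0.08, adjusted p = 3.8e-04). Both separated the groups fully. The remaining 2 subunits were higher as well, Ndc80 by 0.32 ± 0.10 and Spc25 by 0.28 ± 0.11, and the difference between subunits was not tested. Spc25 lost the call when any 1 library other than Scr replicate 3 was left out (adjusted p from 0.0654 to 0.177). Ndc80 lost it when any 1 other than Scr replicate 3 and Yme1l siRNA replicate 2 was (from 0.0618 to 0.0916). Cenpa, the centromeric histone H3 variant, and Cenpf, a large protein of the outer kinetochore, were higher by 0.57 and 0.56. Cenpe, the motor that brings chromosomes to the spindle equator, had 92.6, 101 and 143 CPM in the Scr libraries and 131, 114 and 149 CPM after Yme1l siRNA. Scr replicate 3 stood far above the other Scr libraries and inside the range of the Yme1l siRNA libraries, and the log2 fold change was 0.23 ± 0.17 (adjusted p = 0.265). Without that library Cenpe was higher by 0.44 (adjusted p = 0.0191).

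In the chromosomal passenger complex, the 3 non-kinase subunits rose and the kinase did not pass. Birc5 encodes survivin. It was at 57.4, 62.8 and 66.9 CPM in the Scr libraries and 121, 133 and 132 CPM after Yme1l siRNA, about a doubling with no overlap (1.04 ± 0.08, adjusted p = 2.5e-05). Incenp, the scaffold of the complex, went from 74.9, 76.5 and 84.8 CPM to 147, 149 and 144 CPM, and within each group its libraries lay close together (0.90 ± 0.07, adjusted p = 2.9e-05). Cdca8, which encodes borealin, was higher by 0.77 ± 0.09. Aurkb, the kinase of the complex, was at 43.4, 45.3 and 55.98 CPM and 54.6, 49.03 and 62.4 CPM. Scr replicate 3 lay above the 2 lower Yme1l siRNA libraries, and the log2 fold change of 0.20 ± 0.12 was not past the threshold (adjusted p = 0.183). Without Scr replicate 3 it was 0.31 (adjusted p = 0.0415).

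Spindle motors and assembly factors were higher in 3 of 6 cases. Tpx2, which activates Aurora A on spindle microtubules, rose from 158, 157 and 192 CPM to 244, 243 and 253 CPM. The Yme1l siRNA libraries were nearly level and all above the Scr libraries (0.55 ± 0.09, adjusted p = 0.00105). Kif2c, a kinesin that takes microtubules apart at the centromere, rose from 28.96, 30.9 and 37.2 CPM to 49.2, 42.7 and 54.8 CPM (0.60 ± 0.12, adjusted p = 0.00279). Hmmr, a microtubule-binding protein of the spindle, was higher by 0.45 ± 0.13 and lost the call without Scr replicate 1 or 2 or Yme1l siRNA replicate 1 (adjusted p from 0.0559 to 0.0695). Kif4, a chromosome-bound kinesin, was at 60.9, 58.9 and 73.5 CPM and 76.8, 67.8 and 81.3 CPM, with Scr replicate 3 above 1 of the Yme1l siRNA libraries (0.23 ± 0.10, adjusted p = 0.0935). Kif18a, which dampens chromosome movements at the equator, was at 14.7, 15.5 and 18.6 CPM and 20.2, 17.5 and 21.5 CPM, with the same overlap (0.28 ± 0.12, adjusted p = 0.074). Both passed the test when either Scr replicate 3 or Yme1l siRNA replicate 2 was left out, with adjusted p of 0.0198 and 0.0402 for Kif4 and of 0.0234 and 0.0327 for Kif18a. Kif11, the motor that pushes spindle poles apart, was listed at only 68, 11 and 21 counts with Scr siRNA and at 152, 10 and 18 with Yme1l siRNA. Replicate 1 stood far above the other libraries of its group in both, the log2 fold change of 0.77 had an SE of 0.94 (adjusted p = 0.509), and no direction can be read from it. Without Yme1l siRNA replicate 1 it was -1.28. In the rows beside it, March5 held at most 4 counts in each library and Hhex 0. Why Kif11 was listed so low was not tested. Counted without it, 35 of 48 tested members were higher (72.9%) and 13 did not pass.

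Of the 6 central spindle and cytokinesis genes, 2 were higher (33.3%), a share near the 28.4% of all loci. These were Anln and Ect2, and the other 4 lay near 0. Anln encodes anillin, the scaffold of the contractile ring, and was at 147, 134 and 166 CPM in the Scr libraries and 306, 264 and 291 CPM after Yme1l siRNA (0.94 ± 0.10, adjusted p = 8.4e-05). Ect2, the exchange factor that activates RhoA at the cleavage furrow, went from 50.8, 47.4 and 66.5 CPM to 114, 100.01 and 122 CPM (1.03 ± 0.13, adjusted p = 2.8e-04). Neither gene's groups overlapped. Racgap1 and Kif23 encode the 2 subunits of centralspindlin, which recruits ECT2. Racgap1 was at 251, 259 and 279 CPM and 254, 198 and 291 CPM, the highest member per kilobase of exon in the Scr libraries, at 85.7 CPM per kb. Its Yme1l siRNA libraries spanned the whole Scr range, with replicate 2 lowest of all 6 (-0.08 ± 0.13, adjusted p = 0.6). Kif23 was at 59.01, 59.4 and 77.1 CPM and 64.8, 62.8 and 74.3 CPM, with every Yme1l siRNA library inside the Scr range (0.05 ± 0.12, adjusted p = 0.756). Prc1, which bundles the antiparallel microtubules of the central spindle, was at 138, 139 and 171 CPM and 141, 119.6 and 161 CPM. For Prc1, Scr replicate 3 was the highest and Yme1l siRNA replicate 2 the lowest of all 6 (-0.09 ± 0.13, adjusted p = 0.577). Kif20a, a kinesin of the central spindle, was at 155, 162 and 191 CPM and 159, 121 and 201 CPM, with Yme1l siRNA replicates 2 and 3 the lowest and the highest of all 6 (-0.08 ± 0.17, adjusted p = 0.709). Missing the threshold does not show that these 4 genes stayed level, but their standard errors of 0.12 to 0.17 are small beside the log2 fold changes of Anln and Ect2. Ect2 and the centralspindlin genes thus act in 1 pathway and had different values in the same libraries. The difference between the genes was not tested.

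Chromosome structure genes were higher in 5 of 6 cases. Top2a encodes topoisomerase II alpha, which untangles sister chromatids, and was second to Racgap1 per kilobase of exon in the Scr libraries, at 71.3 CPM per kb. It measured 341, 338 and 438 CPM there and 612, 553 and 644 CPM after Yme1l siRNA (0.70 ± 0.11, adjusted p = 0.00101). The groups did not overlap, and Scr replicate 3 again lay above the other Scr libraries. Ncapg, a subunit of condensin I, had the largest rise of the members that passed the test, from 44.6, 46.9 and 59.7 CPM to 118, 111 and 121 CPM. That is 2.32-fold (1.21 ± 0.11, adjusted p = 5.1e-05). Its exons overlap those of Lcorl on the other strand, which was lower (-0.23). Smc4, an ATPase subunit of both condensins, rose from 182, 188 and 215 CPM to 364, 348 and 369 CPM (0.89 ± 0.08, adjusted p = 4.8e-05). Its partner Smc2 was higher by 0.51 ± 0.11, and Ncaph by 0.32 ± 0.10, a call lost without any 1 of Scr replicates 1 and 2 and Yme1l siRNA replicate 3 (adjusted p from 0.0663 to 0.0975). Ncapd2, the remaining condensin I subunit, was at 174, 170.5 and 216 CPM and 201, 180.1 and 218 CPM. Scr replicate 3 lay near the top of the Yme1l siRNA range, and the log2 fold change was 0.10 ± 0.11 (adjusted p = 0.481). Within condensin I the 5 subunits therefore ranged from 0.10 to 1.21.

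Mki67 and Foxm1 both doubled. Mki67 encodes Ki-67, the surface coat of mitotic chromosomes and the usual marker of cycling cells. It was at 159.6, 187 and 237 CPM in the Scr libraries, which differed among themselves, and at 390.1, 419 and 377 CPM after Yme1l siRNA (1.02 ± 0.13, adjusted p = 3.0e-04). Foxm1, the transcription factor of late cell cycle genes, was at 73.9, 74.1 and 91.3 CPM and then at 165, 166 and 165 CPM. Its 3 Yme1l siRNA libraries were almost identical, and the log2 fold change was 1.05 ± 0.09 (adjusted p = 4.3e-05). The locus of Foxm1 in the count table is joined with Gm44596, Nrip2 and Tex52, so that its counts belong to all 4 names.

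The other genes of mitosis had a median near that of the members. Of 88 further genes, 58 (65.9%) were higher and 4 (4.55%) lower, with a median log2 fold change of 0.53. The largest changes were those of Cep55 (1.47), which encodes a protein of the midbody, Ska1 (1.42), a microtubule-binding kinetochore protein, and Cdca5 (1.24), which encodes sororin, a protector of cohesion. Sorted by complex after their values were seen, all 4 genes of the MIS12 complex (0.53 to 1.09), all 3 of the SKA complex (0.87 to 1.42) and Knl1 (1.10) were higher at the outer kinetochore, whereas Zwint, which binds KNL1, was lower (-0.29). Of the RZZ complex and Spindly, which act at unattached kinetochores, 3 of 4 genes were higher and Zwilch did not pass (0.13). Of 13 genes of the inner centromere network, 7 were higher and none lower, from -0.12 for Cenpt to 1.00 for Cenpi, and of 4 genes for loading CENPA, 2 were higher. The 3 subunits found only in condensin II were all higher, from 0.46 for Ncaph2 to 0.95 for Ncapg2. Of 9 subunits of the anaphase-promoting complex, none was higher and 2, Anapc4 (-0.32) and Cdc16 (-0.31), were lower, with a median of -0.12, beside 28.4% higher and 29.6% lower among all loci. Of the genes that act on this complex, the inhibitor Fbxo5 (1.12) was higher, as were Cdc20, Ube2c and Ube2s (0.32), and the activator Fzr1 did not pass (-0.0079). No difference between complexes was tested. Knstrn, a kinetochore protein, had the largest fall (-0.83).

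The S phase genes are given beside the members as genes of an earlier step of the cycle. All 39 S phase genes found were tested and higher, with a median log2 fold change of 0.83, a 1.78-fold rise, and a lowest value of 0.32 for Mcm6. The largest were Ccne2 (1.73), which encodes cyclin E2, Tk1 (1.53), thymidine kinase, and Tyms (1.50), thymidylate synthase. Mitosis genes thus had the smaller median, and the difference between the lists was not tested. Relative to the mean of all 6 libraries, the mean log2 CPM of the S phase genes stood at -0.48, -0.48 and -0.34 in the Scr libraries and 0.41, 0.41 and 0.47 after Yme1l siRNA. The difference between both lists, S phase minus mitosis, was -0.13, -0.13 and -0.26 in the Scr libraries and 0.11, 0.28 and 0.12 after Yme1l siRNA, and -0.10, -0.14 and -0.26 and 0.15, 0.25 and 0.10 with Kif11 left out. Either way it did not overlap between the groups and was most positive in Yme1l siRNA replicate 2, the library in which the mitosis genes were lowest of their group. The log2 fold changes of the tested members other than Kif11 ranged from -0.09 to 1.21, with a median SE of 0.11. No library of arrested, serum-starved or synchronised cells was analysed here and the share of cells in each phase was not measured in these libraries, so the change that a given rise in cycling cells would give has no value to be set beside the 1.48-fold median.

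**Figure D3:**
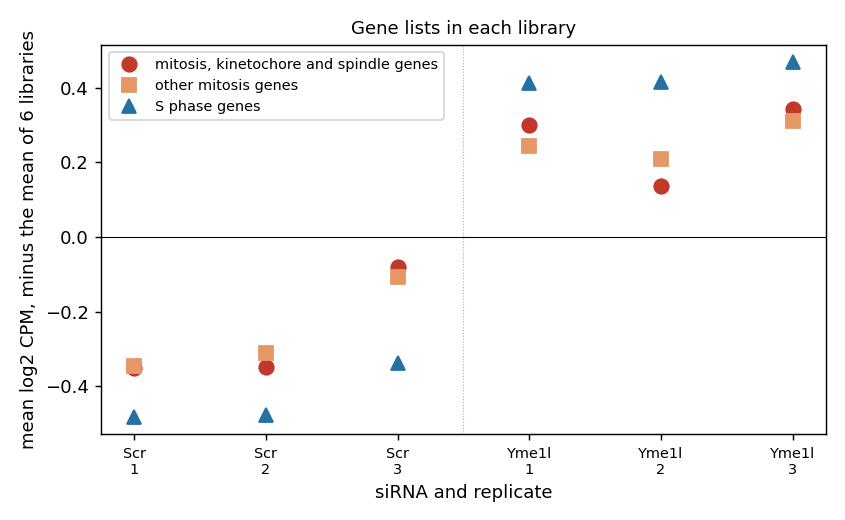
The mean log2 CPM of the mitosis, kinetochore and spindle genes (circles), other mitosis genes (squares) and S phase genes (triangles) in each of the 6 libraries is drawn relative to each list's mean over the 6. All 3 lists are higher in every Yme1l siRNA library than in any Scr library, with the widest gap for the S phase genes, and the mitosis genes come closest between Scr replicate 3 (-0.08) and Yme1l siRNA replicate 2 (0.14).

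**Figure D4:**
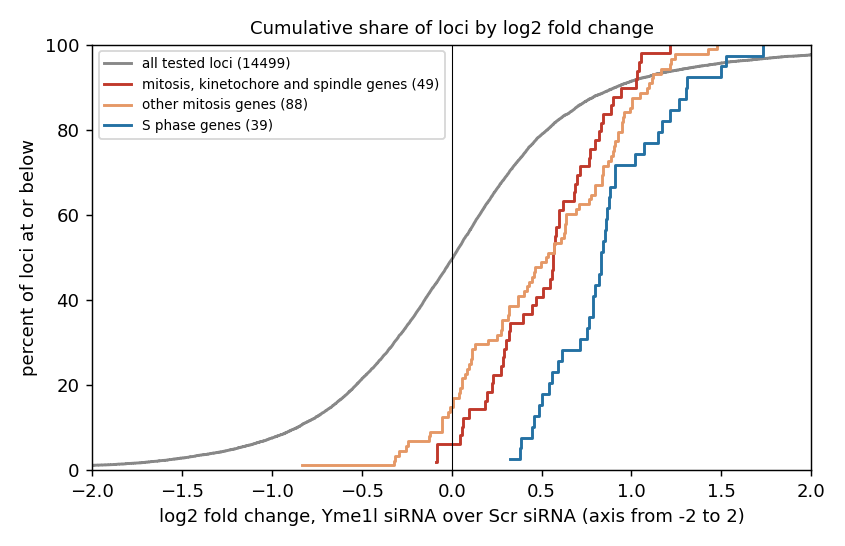
The curves give the percent of loci at or below each log2 fold change for all 14499 tested loci, the 49 tested mitosis genes, 88 other mitosis genes and 39 S phase genes. The curves cross 50 percent at medians of 0.01, 0.57, 0.53 and 0.83, and no S phase gene lies below 0.

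Regulators of these genes changed in both directions. Of 22, 12 were higher (54.5%, beside 28.4% of all loci) and 4 lower (18.2%, beside 29.6%), with a median of 0.23. The largest change was that of Mybl2, which encodes B-Myb, at 28.9, 32.7 and 39.7 CPM in the Scr libraries and 138, 148 and 133 CPM after Yme1l siRNA, a log2 fold change of 2.05 ± 0.12 (adjusted p = 7.8e-06). Tfdp1, a dimer partner of E2F proteins, followed with 1.47, and the other dimer partner, Tfdp2, was lower (-0.61). Among the MuvB subunits, Lin9 (1.10), Lin52 (0.64) and Lin54 (1.29) were higher and Lin37 did not pass (-0.21). The late E2F repressors E2f7 (1.38) and E2f8 (1.29) were higher, and so was E2f2 (0.90), whereas E2f1 and E2f3 had values of 0.07 and 0.01. Of the other E2F genes, E2f5 (0.44) and E2f6 (1.23) were higher and E2f4 (-0.38) was lower. The 3 NF-Y genes, whose products bind CCAAT boxes, did not pass, and Trp53 was higher (0.22). Of the pocket proteins, which hold E2F genes silent in resting cells, Rb1 (-1.33) and Rbl2 (-1.13) were lower and Rbl1 was higher (0.24). Rb1 had several loci in the table, of which the one with the most counts is given. That locus was low, at means of 7.33 CPM with Scr siRNA and 2.90 CPM with Yme1l siRNA. Values of the other Rb1 loci are not given here. Of 13 genes for D-type cyclins, kinases of the G1 phase and CDK inhibitors, 4 were higher (30.8%, near the 28.4% of all loci) and 6 lower (46.2%, beside 29.6%), with a median of -0.09. The inhibitor Cdkn2b had the largest change (-1.26), followed by cyclin D1, Ccnd1 (1.04), and the inhibitor Cdkn2a (-0.66). The inhibitors Cdkn1a (-0.46) and Cdkn1b (-0.49) were lower too, and Cdkn1c, Cdkn2c and Cdkn2d did not pass. Of the other D-type cyclins, Ccnd2 was lower (-0.30) and Ccnd3 higher (0.45), and of the kinases, Cdk2 (0.55) and Cdk6 (0.47) were higher. Cdk4 was lower by a narrow margin (-0.17, adjusted p = 0.04997).

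Some members share sequence with other genes. Exons of 12 members overlap a gene on the other strand in GENCODE M21, and those of 3 a gene on the same strand. The library kit marks strand, but whether the authors' counting used it is not given in the sources used here. Ccnb1 has processed copies at least 95% identical to it, of which Ccnb1-ps was at 2.58 and 4.54 CPM, and 4 further members, Mad2l1, Mki67, Ndc80 and Racgap1, share 200 bases or more at this identity with a transcript that does not overlap them. Another 5, Kif20a, Kif4, Ncapg, Nek2 and Prc1, share as much with the gene they overlap on the other strand, so that reads of these genes could have been split. Prc1 overlaps Rccd1 and Kif20a overlaps Cdc23, and neither partner passed the test (0.00 and -0.12). Kif18a overlaps Mettl15, which was lower (-1.13), at means of 3.31 and 1.51 CPM.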

How the data were processed

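RNA of 6 cultures was measured. Per the labels' processing notes, the authors mapped reads of a strand-marking poly(A) kit to GRCm38 with HISAT2 2.0.4, assembled transcripts with StringTie 1.3.3 and tested with Cuffdiff 2.2.1. The values used are the raw counts per locus that the authors deposited, and the program that made these counts is not given in the sources used here. A table of the authors' own comparison, with FPKM per group, fold changes, test statistics, p and q, was not used.

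Loci were kept by filterByExpr (minimum count 10, total 15), leaving 14499 of 51499. Counts were fitted with edgeR 4.0.16 in R 4.3.3 (TMM factors, quasi-likelihood test, 1 factor, no covariate), with the Benjamini-Hochberg adjustment over all loci tested and a threshold of 0.05. The fit was also run on simulated counts. These held far fewer changed loci than were called here, so they do not test the fit at that share of changes. The members and lists were chosen with earlier results of these data known. Values per library were given for Cdk1, Ccnb1, Plk1, Cdc20, Bub1, Aurkb, Top2a, Mki67 and Foxm1, for the 2 members of each role with the smallest adjusted p and for every member that was lower or not called. The remaining members were given by their size, and further lists by counts, median and the 3 called genes with the largest change. Further genes of these lists were named after their values were seen, by complex or family, and so were Mybl2's values per library and the rows beside Nek2 and Kif11. Where a name had several loci, the one with most counts was used. Cdt1 and Gins2 of the S phase list were not analysed here.

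Levels per kilobase used exons of basic transcripts in GENCODE M21 (GRCm38). Near-identical transcripts were sought by BLAST, at 95% identity over 200 bases. Promoter windows of 300 bases were RefSeq's (GRCm38.p6). Alternatives were RLE and upper-quartile factors, DESeq2 1.42.0, limma-voom 3.58.1, no filter, a mean of at least 50 counts, a threshold of 0.01, the replicate number as a block, each library left out and mitochondrial genome loci left out. No 2 libraries of a group agreed within counting noise (chi-square per degree of freedom from 9.99 to 73.8).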

Additional observations from a re-analysis of the deposited data

How the results depend on the processing

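Under the other factors, tools, filters and the stricter threshold, and with mitochondrial genome loci left out, loci higher, loci lower and members higher stayed within 1.5 times their values, members lower stayed 0, and the members' median moved by less than the spread between replicates. Leaving out 1 library gave 3451 to 4133 loci higher, 3616 to 4312 lower, 30 to 39 members higher, 0 lower and medians of 0.51 to 0.63. Of the 35 members higher, 30 were so in all 15 alternatives, and the others were Ube2c, Ndc80, Spc25, Hmmr and Ncaph, all 5 lost at a threshold of 0.01. limma-voom lost only Ube2c, and a mean of at least 50 counts added only Kif18a.

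No member past the threshold changed sign. Some that did not pass changed sign when 1 library was left out, with ranges of -0.023 to 0.16 for Ccnb2, -0.28 to 0.097 for Kif20a, -0.034 to 0.18 for Kif23, -0.20 to 0.023 for Prc1, -0.22 to 0.061 for Racgap1 and -1.28 to 1.74 for Kif11. The cause was not tested.

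Libraries with the same replicate number correlated in their deviations from the group means by 0.04, 0.12 and 0.19. Of the 6 libraries, 5 correlated best with their own number in the other group, a hint from the data and not the design. Whether libraries of a number share more than that number is not settled by these values. With the replicate block, 4227 loci were higher, 4460 lower and 39 members higher, none lower, with a median of 0.57, and Pttg1, Aurkb, Kif4 and Kif18a were added. With 3 cultures a group, p-values rest on the spread between these cultures.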
